A study of Mus musculus with 8 samples.

Results

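AMP-activated protein kinase (AMPK) subunit and upstream kinase mRNAs were examined in mouse hearts with and without *Tigar*. The 8 genes were taken by symbol from the 16994 genes of the deposited table: the catalytic subunit genes *Prkaa1* and *Prkaa2*, the scaffold subunit genes *Prkab1* and *Prkab2*, the nucleotide-binding subunit genes *Prkag1* and *Prkag2*, and the upstream kinase genes *Stk11* and *Camkk2*. All 8 passed a filter of 1 CPM (a gene's count relative to the scaled total of its library) on the mean over libraries, as did 12999 genes in all. The rule names the genes by symbol and sets no limit on a measured value.

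The hearts came from male wild-type (WT) mice and male TIGAR-knockout (TKO) mice, which lack *Tigar*, a phosphatase gene that restrains glycolysis, in the whole body. The study's floxed line was made from C57BL/6N mice with the *Tigar* allele tm1a(EUCOMM)Wtsi, and the sources used here do not spell out how the TKO line relates to it. The infarct, border, and remote zones were taken after permanent ligation of the left anterior descending coronary artery at 16 weeks of age. Left ventricle tissue was the remaining group in each genotype, and the sources used here do not give its operation or age. Each of the 2 genotypes and 4 regions had 1 library, and each infarct zone library pooled RNA from 3 mice, so a difference between 2 libraries rests on those libraries alone. All libraries are bulk tissue, in which fewer cells of a type and less RNA per cell cannot be told apart.

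AMPK senses falling cellular energy. Its catalytic α subunit is held on a β scaffold that also binds glycogen, and its γ subunit binds AMP, ADP, and ATP. LKB1, encoded by *Stk11*, and the calcium-responsive kinase CaMKK2 phosphorylate and activate the α subunit. In heart muscle, active AMPK promotes glucose uptake and fatty acid oxidation and restrains protein synthesis.

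All 8 genes had promoter sequence in RefSeq (GRCm38.p6), and the windows shown hold the 250 bases before the annotated start on the gene's own strand. They belong to the member that was lowest in the infarct zone relative to the other regions, the member that was highest there, and a member that was higher in all 6 zone libraries than in left ventricle. Capitals mark matches on either strand to 3 motifs. The GC box was searched as GGGCGG. The CCAAT box, a common promoter element, was searched by the letters of its name. The half-site of the estrogen-related receptors, regulators of heart muscle metabolism, was searched as AAGGTCA. AP-1 sites, searched as TGANTCA, were in none of the printed windows.
Prkaa2, chr4:105109899-105110148, minus strand: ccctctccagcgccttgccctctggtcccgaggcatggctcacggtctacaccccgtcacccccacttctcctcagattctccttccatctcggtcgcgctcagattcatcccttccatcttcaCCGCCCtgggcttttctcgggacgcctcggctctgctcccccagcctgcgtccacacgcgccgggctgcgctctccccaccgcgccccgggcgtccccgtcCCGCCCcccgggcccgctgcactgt
Camkk2, chr5:122779411-122779660, minus strand: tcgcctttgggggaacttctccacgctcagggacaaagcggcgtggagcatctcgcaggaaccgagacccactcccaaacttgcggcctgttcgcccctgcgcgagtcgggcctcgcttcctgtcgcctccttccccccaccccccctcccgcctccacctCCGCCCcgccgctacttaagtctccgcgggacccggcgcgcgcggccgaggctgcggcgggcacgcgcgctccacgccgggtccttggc
Prkag2, chr5:24995754-24996003, minus strand: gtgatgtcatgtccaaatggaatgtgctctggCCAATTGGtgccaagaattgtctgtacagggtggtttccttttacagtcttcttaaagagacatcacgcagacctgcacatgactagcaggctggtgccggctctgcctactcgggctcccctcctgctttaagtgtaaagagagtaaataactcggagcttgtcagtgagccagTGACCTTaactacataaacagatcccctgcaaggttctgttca

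The *Prkaa2* window had a GC content of 70% and 2 GC box matches, and the *Camkk2* window had 72.4% and 1 match. *Prkag2* has 3 annotated starts, and the window shown is that of the middle start, within the span of the longest transcript. It was chosen after its matches were seen, as the only *Prkag2* window with a half-site. It had a GC content of 48.4%, 1 half-site match, and 2 CCAAT matches that overlap each other on opposite strands. The other *Prkag2* windows had GC contents of 77.2% and 73.2% and 0 half-sites, with 1 GC box match in the former, and 2 GC box matches and 1 CCAAT match in the latter. Of 32851 RefSeq promoter windows of the same length, 32.74% held a GC box, 33.85% a CCAAT box, 4.08% the half-site, and 6.75% an AP-1 site. A match is a description of the letters and not evidence of binding.

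Total counts lay between 27429240 and 33799249 per library. Counts were scaled by edgeR's TMM factors, which were 1.54 for the WT infarct zone, 1.26 for the TKO infarct zone, and 0.866 to 0.956 for the other 6 libraries, so the infarct zone libraries stand apart. *Tigar* had 1066 to 2215 counts in the WT libraries and 51 to 87 in the TKO libraries, as labelled. Summed CPM of 7 cardiomyocyte markers was 7550 in the WT infarct zone and 15600 in the TKO infarct zone, against 24600 to 32900 elsewhere, and none of the 7 was at 0 in any library. Sums of 6 fibroblast markers were 7790 and 6510 in the infarct zone and 817 to 2840 elsewhere, and those of 6 macrophage markers were 1380 and 1020 against 263 to 504.

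Levels per kilobase can be compared between genes, and the longest annotated transcript was used as the length. In WT left ventricle, *Prkag1* was the highest member at 51.3 CPM per kilobase, followed by *Stk11* at 34.3. *Prkab1*, *Prkab2*, and *Prkaa2* lay close together at 13.3, 13, and 12.5, an order for which 1 library gives no spread. *Prkag2*, *Prkaa1*, and *Camkk2* were lowest, at 8.38, 2.79, and 2.05 CPM per kilobase. The order depends on the length used. By the median length of coding transcripts, *Prkag2* stood at 18 CPM per kilobase, above *Prkab1*, *Prkab2*, and *Prkaa2* at 13.5, 13, and 12.5, and *Camkk2* at 9.19 stood above *Prkaa1* at 2.8.

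**Figure D1:**
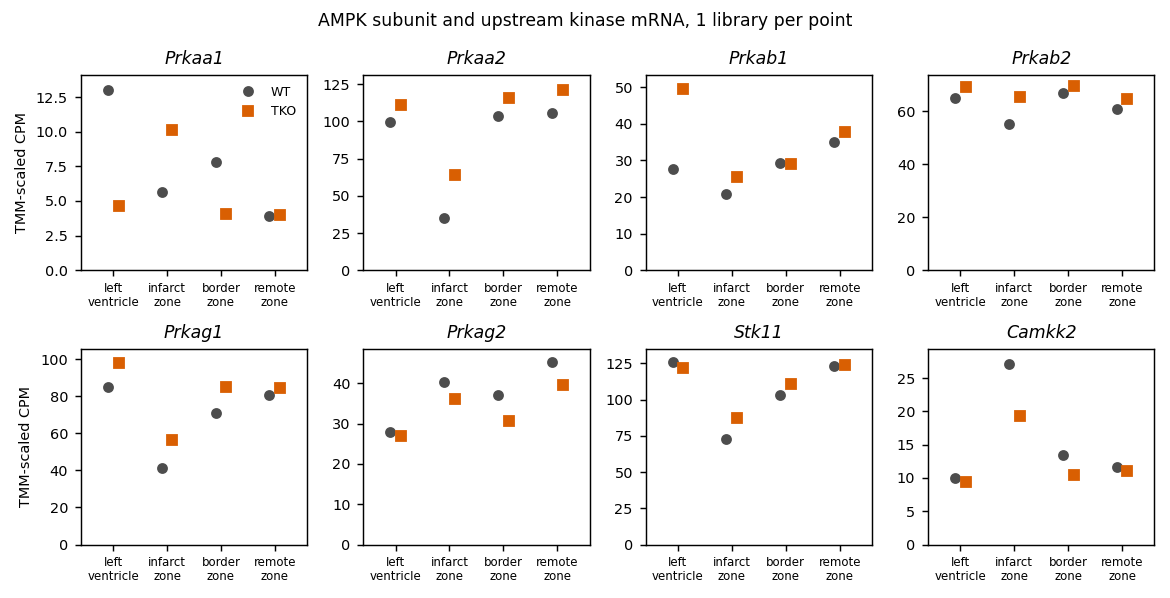
TMM-scaled CPM (vertical axes, from 0) of the 8 members in the 4 regions, with 1 WT library (grey circles) and 1 TKO library (orange squares) per region. *Prkaa2*, *Prkab1*, *Prkag1*, and *Stk11* were lowest in the infarct zone and *Camkk2* was highest there under this scaling. With total counts *Prkab1* and *Stk11* were not lower in the infarct zone than in the other regions. The fall of *Prkag1* was then smaller and did not pass the edgeR test.

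Of the catalytic subunit genes, *Prkaa2* encodes α2, the main isoform of cardiac muscle (ENSMUSG00000028518, GRCm38 chromosome 4, 105029874 to 105109890). Its TMM-scaled level was 99.9 CPM in left ventricle and 35.4, 104, and 106 CPM in the infarct, border, and remote zones of WT hearts. In TKO hearts the levels were 111, 63.7, 116, and 121 CPM in the same order. Both infarct zone libraries lay below the other 6, and the TKO library lay above the WT library in each region.

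*Prkaa2* in the infarct zone was 0.355 times its left ventricle level in WT (95% interval from counting error, 0.332 to 0.377) and 0.575 times in TKO (0.543 to 0.607). In the infarct zone TKO stood at 1.8 times WT (1.68 to 1.92), and the ratio was 1.11, 1.12, and 1.14 in left ventricle, border zone, and remote zone. The 7 cardiomyocyte markers moved in the same places: their median infarct over left ventricle ratio was 0.232 in WT and 0.478 in TKO, and their median TKO/WT ratio in the infarct zone was 1.96. Their part in the *Prkaa2* difference was not tested. With libraries scaled by total counts the *Prkaa2* TKO/WT ratio in the infarct zone was 1.47. Its infarct over left ventricle ratio was then 0.63 in WT and 0.834 in TKO, so the size of the fall depended on the scaling.

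Across the 4 regions of both genotypes, *Prkaa2* fell in the infarct zone relative to the mean of the other regions, with a log2 difference of -1.18 ± 0.17 (SE) and an adjusted p of 0.00162 (edgeR, quasi-likelihood, with p-values adjusted by Benjamini and Hochberg's method). This test takes the WT and TKO libraries of a region as if they were replicates, so it bears on these libraries and not on mice. The departure of the infarct zone genotype difference from that of the other regions was 0.68 ± 0.14 (SE) on the log2 scale for *Prkaa2* and did not pass the same test (adjusted p = 0.41). It passed with DESeq2 (adjusted p = 0.0218), which called 2.22% of all genes. It also passed with edgeR without left ventricle (adjusted p = 0.00823), where 894 of 13125 genes were called, against 1 of 12999 with all regions. The departure rests on 1 infarct zone library per genotype. On simulated data the departure test called 1.5% of genes changed 2-fold, so a gene that does not pass may still differ.

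*Prkaa1* encodes α1, the more widely expressed catalytic isoform (ENSMUSG00000050697, chromosome 15, 5143861 to 5181899). Its estimated counts were 356 in left ventricle and 240, 240, and 120 in the infarct, border, and remote zones of WT hearts. In TKO hearts they were 120, 360, 120, and 120. Thus 7 of 8 counts were whole multiples of 120, and the remaining count was 116 above such a multiple. No other gene of the 16994 had at least 7 counts above 0 that were multiples of 120, and the same held for multiples of 30 and of 60.

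Of the 31-base words in *Prkaa1* transcripts, 0.108% occur in another gene, 5 words shared with *Prkaa2*. The ratios of *Prkaa1* follow the steps of its counts, and TKO/WT was 0.36, 1.77, 0.523, and 1.01 in left ventricle and the infarct, border, and remote zones. Counting intervals assume reads that vary one by one, which these values do not show, so none is printed in the text for this gene. Those drawn for it in the figures have no clear meaning, and its ratios can be read only as steps. What makes the steps was not tested. Counts of members past a fold limit are therefore also given without it.

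**Figure D2:**
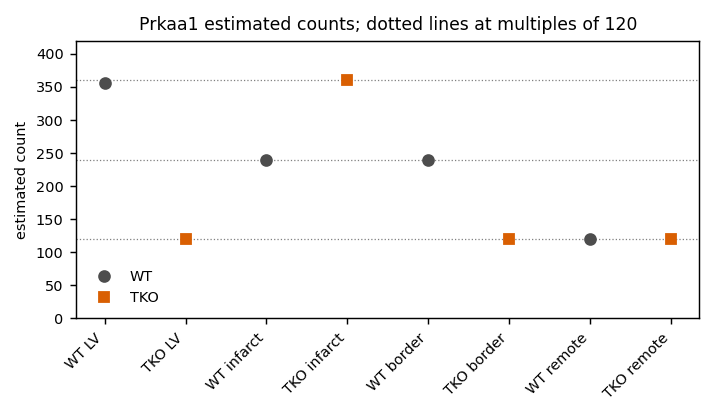
Estimated counts of *Prkaa1* (vertical axis) in the 8 libraries (WT, grey circles; TKO, orange squares), with dotted lines at 120, 240, and 360. Each library except WT left ventricle, at 356, lies on a line.

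Between the scaffold subunit genes, *Prkab1* (β1; ENSMUSG00000029513, chromosome 5, 116013586 to 116024508) had its highest level in 1 library, TKO left ventricle. WT levels were 27.8 CPM in left ventricle and 20.9, 29.4, and 35 CPM in the 3 zones, given in the order infarct, border, and remote. TKO levels were 49.5, 25.6, 29, and 37.9 CPM. The TKO/WT ratio was 1.78 in left ventricle (1.63 to 1.95) and 1.22, 0.985, and 1.08 in the zones, in that order.

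Because each zone is set against that left ventricle library in TKO, *Prkab1* was 0.518, 0.586, and 0.765 times its left ventricle level in the TKO infarct, border, and remote zones. In WT the corresponding ratios were 0.755, 1.06, and 1.26. *Prkab1* was lower in the infarct zone than in the other regions by a log2 difference of -0.57 ± 0.17 (SE; adjusted p = 0.0262, edgeR), but this was -0.53 without the remote zone (adjusted p = 0.0644) and 0.07 with total-count scaling (adjusted p = 0.731).

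*Prkab2* (β2, abundant in muscle; ENSMUSG00000038205, chromosome 3, 97658193 to 97673812) varied least among the members on the TMM scale, with a highest over lowest library ratio of 1.26, whereas with total counts that ratio was 1.56 and was lower for *Prkag1* (1.33) and *Stk11* (1.14). It had 65.2, 55.4, 66.8, and 60.8 CPM in left ventricle and the infarct, border, and remote zones of WT hearts, and 69.3, 65.3, 69.7, and 64.6 CPM in TKO hearts. TKO/WT ratios lay between 1.04 and 1.18. Its infarct zone difference from the other regions was -0.13 on the log2 scale (adjusted p = 0.194, edgeR) and 0.5 with total-count scaling (adjusted p = 0.00132), so its direction depended on the scaling.

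Among the γ subunit genes, *Prkag1* (γ1; ENSMUSG00000067713, chromosome 15, 98812797 to 98831521) had 84.8 CPM in left ventricle and 41.4, 70.8, and 80.5 CPM in the infarct, border, and remote zones of WT hearts. TKO levels were 97.8, 56.5, 84.9, and 84.5 CPM. Both infarct zone libraries lay below the other 6. In the infarct zone the TKO/WT ratio was 1.36 (1.28 to 1.46), which became 1.11 with total-count scaling. It was 1.15 in left ventricle, 1.2 at the border, and 1.05 in remote tissue.

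*Prkag1* fell in the infarct zone relative to the other regions by 0.79 ± 0.1 (SE) on the log2 scale (adjusted p = 0.0013, edgeR), and with total-count scaling the difference was -0.15 (adjusted p = 0.177). Of the 31-base words in *Prkag1* transcripts, 35% also occur in *B130046B21Rik*, which overlaps it on the opposite strand. Without strand, which is not given in the sources used here, reads from the shared stretch cannot be told apart, so the level of *Prkag1* is uncertain.

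*Prkag2* (γ2, whose mutations cause a human cardiomyopathy with glycogen storage; ENSMUSG00000028944, chromosome 5, 24862744 to 25100642) was ordered differently. WT levels were 27.9 CPM in left ventricle and 40.4, 37.2, and 45.3 CPM in the infarct, border, and remote zones. TKO levels were 27, 36.2, 30.6, and 39.6 CPM. All 6 zone libraries lay above both left ventricle libraries, with zone over left ventricle ratios of 1.33 to 1.62 in WT and 1.13 to 1.47 in TKO. TKO lay below WT in every region, with ratios of 0.967, 0.895, 0.823, and 0.875 in left ventricle and the infarct, border, and remote zones.

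*Prkag2* and *Camkk2* were the 2 members with all 6 zone libraries above both left ventricle libraries, a pattern that 12.7% of the 12999 genes had, and 0 members had the reverse, which 13.1% of genes had. *Prkag2* did not pass the test of the infarct zone against the other regions (log2 difference, 0.17, adjusted p = 0.101, edgeR). Without the remote zone it did (0.32, adjusted p = 0.0359), and with total-count scaling the difference was 0.81 (adjusted p = 0.000242). Antisense genes share 12.7% of its 31-base words.

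*Prkag3*, the γ3 gene typical of fast skeletal muscle and not among the 8, had 33 to 61 counts per library. Within the γ subunit genes, per length of the longest transcript, *Prkag1* made up 85.2% in WT and 87.4% in TKO left ventricle and 66.8% and 74.9% in the infarct zone. At the border it made up 78.5% and 83.9%, and in remote tissue 77.6% and 80.4%. The *Prkag2* share was 13.9% and 12% in left ventricle and 32.4% and 23.8% in the infarct zone, and that of *Prkag3* was 0.664% to 1.32% over the 8 libraries. These shares do not depend on the library scaling.

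*Prkaa2* made up 78.5% to 94.7% of α subunit RNA per length, with the remainder set by the stepped *Prkaa1* values. *Prkab1* made up 47.5% to 58.4% of β subunit RNA in 7 libraries and 63.1% in TKO left ventricle. Summed per length, α subunit RNA was 5.66 CPM per kilobase in the WT infarct zone and 10.2 in the TKO infarct zone, against 14.1 to 16 elsewhere. The γ sum was 37.5 and 45.7 in the infarct zone and 54.6 to 67.7 elsewhere, and the β sum 21.1 and 25.3 against 26.3 to 37.6.

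**Figure D3:**
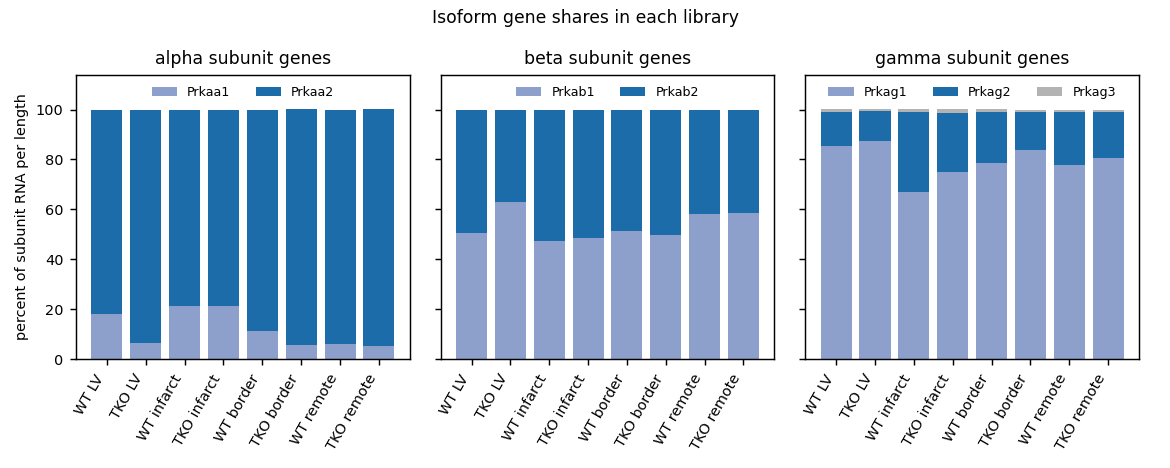
Share of each subunit's RNA (vertical axis, percent of summed CPM per length of the longest transcript) contributed by each isoform gene in the 8 libraries. *Prkag2* had its largest shares of γ RNA in the infarct zone, 32.4% in WT and 23.8% in TKO, and *Prkag3* never exceeded 1.32%.

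*Stk11*, which encodes LKB1 (ENSMUSG00000003068, chromosome 10, 80115803 to 80130682), had 126, 72.9, 103, and 123 CPM in left ventricle and the infarct, border, and remote zones of WT hearts. In TKO hearts it had 122, 87.1, 111, and 124 CPM. Both infarct zone libraries were the lowest, and elsewhere the genotypes were close, with TKO/WT ratios of 0.97, 1.08, and 1.02 in left ventricle, border zone, and remote zone. The infarct zone ratio was 1.19 (1.14 to 1.25) with TMM and 0.973 with total-count scaling.

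Set against the other regions, *Stk11* in the infarct zone differed by -0.56 ± 0.1 (SE) on the log2 scale (adjusted p = 0.00341, edgeR), which turned to 0.07 with total-count scaling (adjusted p = 0.497). Its transcripts share 4.31% of their 31-base words with *Cbarp*, which overlaps it on the opposite strand.

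*Camkk2*, the calcium-responsive activator of AMPK (ENSMUSG00000029471, chromosome 5, 122731170 to 122779409), moved opposite to *Prkaa2*. Its WT levels were 9.96 CPM in left ventricle and 27.1, 13.4, and 11.7 CPM in the infarct, border, and remote zones. TKO levels were 9.46, 19.3, 10.5, and 11 CPM. Both infarct zone libraries lay above the other 6, and TKO lay below WT in each region.

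The infarct over left ventricle ratio of *Camkk2* was 2.71 in WT (2.38 to 3.12) and 2.04 in TKO (1.76 to 2.37). The TKO/WT ratio was 0.714 in the infarct zone (0.648 to 0.784) and 0.786 at the border (0.675 to 0.911), against 0.943 in remote tissue and 0.95 in left ventricle. With total counts the infarct zone ratio was 0.582. *Camkk2* rose in the infarct zone relative to the other regions by 1.07 ± 0.11 (SE) on the log2 scale (adjusted p = 0.00059, edgeR), and by 1.72 with total-count scaling. The 6 macrophage markers had median infarct over left ventricle ratios of 4.21 in WT and 3.38 in TKO, and their median TKO/WT ratio in the infarct zone was 0.74. For the 6 fibroblast markers these values were 13.4, 11.2, and 0.825. Other lists rose too. The 4 mural (vessel wall) markers had 2.77, 2.14, and 0.719, with 3 of the 4 above 1 over left ventricle in each genotype. The 3 red blood cell markers had 2.2, 1.87, and 1.05, and the 2 lymphocyte markers tested had 1.8, 4.84, and 0.487. The part of these cell types in the *Camkk2* difference was not tested.

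**Figure D4:**
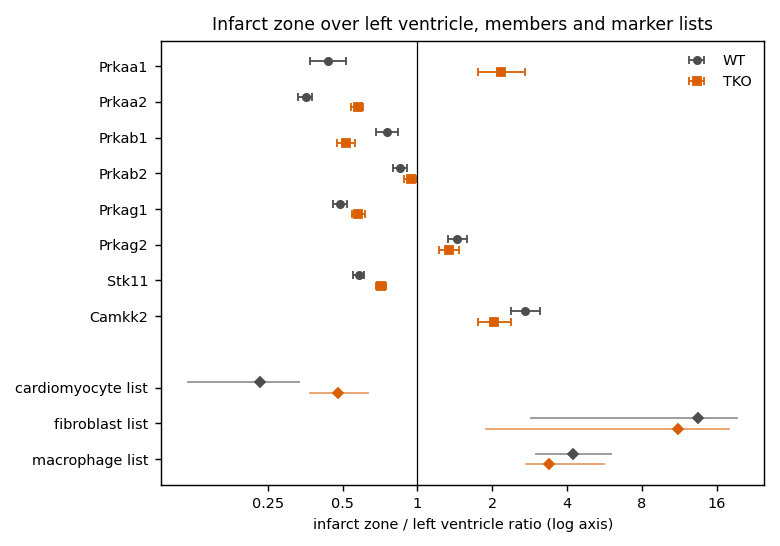
Infarct zone over left ventricle ratio (log axis) of the 8 members with 95% intervals from counting error, and of 3 marker lists (diamond, median; line, lowest to highest gene), in WT (grey) and TKO (orange). *Prkaa2* lay at 0.355 and 0.575 and the cardiomyocyte median at 0.232 and 0.478, whereas *Camkk2* lay at 2.71 and 2.04 on the side of the macrophage and fibroblast lists. The medians of the mural, red blood cell, and lymphocyte lists, not drawn here, lay on that side too. The *Prkaa1* intervals have no clear meaning, since its counts move in steps. With total-count scaling *Prkaa2* lay at 0.63 and 0.834, *Stk11* at 1.03 and 1.04, and *Prkab1* in WT at 1.34.

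In the test of the infarct zone against the other regions, 1 member rose (*Camkk2*) and 4 fell (*Prkaa2*, *Prkab1*, *Prkag1*, and *Stk11*), whereas 30.4% of all tested genes rose and 29.3% fell, so the share called is near that of genes in general. With total-count scaling the count was 4 higher and 1 lower, against 65.5% and 8.54% of genes. By the ratio to left ventricle, with 1.5-fold as the limit, 1 member was higher and 4 lower in the WT infarct zone (28.4% and 25.8% of genes), and 2 were higher and 3 lower in the TKO infarct zone (26.2% and 20.2%). With total counts these were 3 higher and 1 lower in WT, and 3 higher and 0 lower in TKO, while the median gene itself shifted by 0.82 and 0.53 on the log2 scale. Without *Prkaa1*, on the TMM scale, 1 member was higher and 3 were lower in the infarct zone of either genotype.

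Between the border zone and left ventricle, 1 member passed 1.5-fold in WT (*Prkaa1*, 0.602) and 1 in TKO (*Prkab1*, 0.586), against 18.8% and 15.4% of genes in either direction. Between the remote zone and left ventricle, 2 members passed in WT (*Prkag2*, 1.62, and *Prkaa1*, 0.307) and 0 in TKO, against 14.3% and 12.7% of genes. The zone comparisons of a genotype share its left ventricle library.

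Between genotypes, few members differed by 1.5-fold within a region. In left ventricle 1 was higher (*Prkab1*) and 1 lower (*Prkaa1*), against 5.71% and 8.82% of genes. In the infarct zone 2 were higher (*Prkaa1* and *Prkaa2*) and 0 lower, against 10% and 6.19%, but with total-count scaling 0 were higher and 1 was lower (*Camkk2*, 0.582), with *Prkaa1* at 1.44 and *Prkaa2* at 1.47. In the border zone 0 were higher and 1 was lower (*Prkaa1*), against 3.61% and 8.32%, and remote tissue had 0 higher and 0 lower, against 3.13% and 6.33%. Without *Prkaa1*, the counts were 1 in left ventricle, 1 in the infarct zone, and 0 at the border and in remote tissue.

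**Figure D5:**
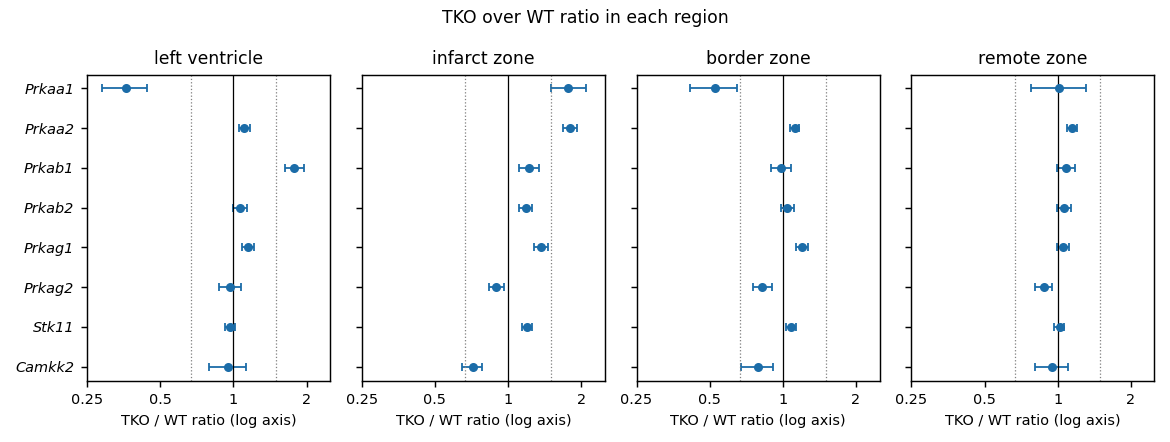
TKO/WT ratio (log axis) of the 8 members in each region, with 95% intervals from counting error and dotted lines at 1.5-fold either way. *Prkaa2* was at 1.8 in the infarct zone and between 1.11 and 1.14 in the other regions, and *Prkab1* was at 1.78 in left ventricle only. The *Prkaa1* points move in steps, so its intervals have no clear meaning. *Stk11* in the infarct zone was at 0.973 with total-count scaling.

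No member passed the test of genotype across the 4 regions: 0 of 8 had an adjusted p under 0.05 with edgeR, against 0.138% of all genes. DESeq2 called 0 members and 2.63% of genes. The genotype test takes regions as if they were replicates, so it bears on these libraries and not on mice. An unadjusted p under 0.05 with edgeR was found for 4 members and for 16.2% of genes. Those 4 were *Prkaa2* (log2 difference, 0.34), *Prkag1* (0.25), *Prkag2* (-0.17), and *Camkk2* (-0.26), with adjusted p-values of 0.256 to 0.299. Each had the same sign in all 4 regions, which is not separate evidence, since the test that picked them rests on those 4 differences. In the test for a departure of the infarct zone genotype difference, edgeR called 0 members and 0.00769% of genes, and DESeq2 called 1 member, *Prkaa2*, and 2.22% of genes. An unadjusted p under 0.05 with edgeR was found for 2 members, *Prkaa1* and *Prkaa2*, and for 7.83% of genes.

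Over the 8 libraries, *Prkag1*, *Prkaa2*, and *Stk11* followed the mean log2 level of the cardiomyocyte markers (Pearson's r = 0.98, 0.97, and 0.95), and *Camkk2* ran against it (r = -0.98). *Prkab2* and *Prkab1* had r = 0.79 and 0.73, *Prkag2* -0.48, and *Prkaa1* -0.11. These are descriptions over 8 libraries that share their scaling, and the 2 infarct zone libraries lie apart from the other 6 in the marker levels. All r values are on the TMM scale. On that scale *Stk11* had a highest over lowest library ratio of 1.72, against 1.14 with total counts. The genes most alike were *Mycbp*, *Mrpl32*, and *Ccng1* for *Prkaa2* (r = 0.997 to 0.999), *Mmadhc*, *Mrpl2*, and *Mtfp1* for *Prkag1* (0.999 each), and *Ghr*, *Isoc1*, and *Fbxo8* for *Stk11* (0.993 to 0.997). For *Camkk2* they were *Cdc25b*, *Serpinb9*, and *Chst12* (0.997 to 0.998).
The other members had nearest genes with lower values. They were *Dcun1d4*, *Paqr7*, and *Arhgef19* for *Prkab1* (r = 0.965 to 0.971), *Fam169a*, *Mfap1a*, and *Nsun5* for *Prkab2* (0.953 to 0.959), *Mlana*, *Ube2z*, and *Tbc1d1* for *Prkag2* (0.945 to 0.964), and *Kif3c*, *Vps18*, and *Npffr1* for *Prkaa1* (0.904 to 0.937). The *Prkaa1* values rest on its stepped counts.

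Around the members, 46 genes of 6 pathway lists were tested. In the infarct zone relative to the other regions, 14 rose and 20 fell with edgeR (30.4% and 29.3% of all genes tested), but 26 rose and 7 fell with total-count scaling (65.5% and 8.54%), so these directions are relative to the TMM scale. The 14 include *Tsc2*, which had counts in the infarct zone only. Where every library had to hold at least 10 counts, 14 of 45 rose and 18 fell. For genotype across regions, edgeR called 0 of the 46 (0.138% of all genes) and DESeq2 called 0 (2.63%). An unadjusted p under 0.05 was found for 4 with edgeR, against 16.2% of all genes. With DESeq2 it was also found for 4, not all of them the same genes. TKO/WT ratios in the infarct zone are also on the TMM scale, on which the median gene was at 1, against 0.82 with total counts.

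LKB1 works in a complex with a STRAD pseudokinase and a MO25 scaffold. Of these 4 partner genes, 0 rose and 2 fell in the infarct zone relative to the other regions with edgeR (2 and 1 with total counts): *Stradb* (log2 difference, -1.12, adjusted p = 0.00242) and *Cab39*, which encodes MO25α (-0.49, adjusted p = 0.00374, but 0.15 with total counts). *Stradb* was 1.75 times as high in the TKO as in the WT infarct zone (1.6 to 1.93), from 1099 and 740 counts. *Strada* had a TKO/WT ratio of 0.832 there and *Cab39* of 1.07.

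Of 6 other upstream regulators, 2 rose in the infarct zone and 4 fell (3 and 0 with total counts). *Camkk1*, the paralog of *Camkk2*, rose by 1.94 on the log2 scale (adjusted p = 0.000359), from 43 to 118 counts in the 6 other libraries to 434 in the WT and 305 in the TKO infarct zone. *Sesn2* and *Sesn1*, which encode stress-induced sestrins, went opposite ways, with log2 differences of 0.74 (adjusted p = 0.00912) and -0.73 (adjusted p = 0.0335), the latter -0.1 with total counts (adjusted p = 0.622). The adiponectin receptor gene *Adipor2* fell by 0.51 (adjusted p = 0.00888), and with total counts its difference was 0.12. TKO/WT ratios in the infarct zone were 0.69 for *Sesn2*, 1.43 for *Sesn1*, and 1.26 for *Adipor2*, and *Sesn1* was at 0.613 in left ventricle. *Sesn3* was not analysed here.

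Of 11 AMPK-related kinases, which LKB1 also activates, 3 rose in the infarct zone and 1 fell (8 and 0 with total counts). *Brsk2*, at 0 to 11 counts, was below the filter. Between genotypes, 3 were at least 1.5-fold lower in TKO left ventricle (8.82% of all genes), among them *Snrk* (ratio, 0.581, 0.554 to 0.608). In the TKO infarct zone 2 were higher (10% of all genes), *Mark4* (1.7) and *Mark3* (1.59). *Mark4* was at 0.534 in the remote zone, so its direction differed between regions. *Snrk* was at 1.41 in the infarct zone, and its test against the other regions gave -0.3 on the log2 scale (adjusted p = 0.329).

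Of 8 genes for metabolic targets of AMPK, 4 rose and 4 fell in the infarct zone relative to the other regions (4 and 3 with total counts). *Acacb*, the muscle acetyl-CoA carboxylase that makes the brake on mitochondrial fatty acid entry, had 405 CPM in WT and 264 in TKO left ventricle, and 74.8 and 147 in the infarct zone. Border zone levels were 219 and 302 CPM and remote zone levels 232 and 320. TKO was therefore lower than WT in left ventricle (ratio, 0.652) and higher in the other 3 regions (1.96, 1.38, and 1.38). *Gys1*, muscle glycogen synthase, had ratios of 0.815, 1.72, 1.29, and 1.22 in left ventricle and the infarct, border, and remote zones, and *Pfkfb2*, a control enzyme of glycolysis, had 0.688, 1.47, 1.07, and 1.57.

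All 8 of the metabolic target genes had a TKO/WT ratio below 1 in left ventricle, with a median of 0.739 against 1.01 for all genes. Of the 8, 3 were past 1.5-fold lower, as were 8.82% of all genes. In the infarct zone 2 were past 1.5-fold higher and 0 lower (10% and 6.19% of all genes), with a median of 1.16 against 1 for all genes. The 3 adipocyte markers summed to 28.9 CPM in WT and 0.463 CPM in TKO left ventricle, and to 2.1 to 5.7 CPM in the zone libraries. WT left ventricle thus stood far above every other library, and in each of those others 1 of the 3 markers was at 0. The part of these markers in the left ventricle ratios was not tested.

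Of 12 growth, autophagy, and transcription targets, 4 rose and 6 fell in the infarct zone relative to the other regions (7 and 1 with total counts). *Ppargc1a*, a coactivator of mitochondrial biogenesis, fell by 1.04 on the log2 scale (adjusted p = 0.0015, edgeR) and had a TKO/WT ratio of 1.56 in the infarct zone. *Foxo3*, a stress-responsive transcription factor, was at 1.25 there and 0.581 in left ventricle. *Tsc2*, a brake on growth signalling, was listed at 0 in the 6 other libraries and had 267 and 102 counts in the WT and TKO infarct zone. It passed the filter only through the infarct zone, so its call is not read as a level, though it is among the 4 counted as higher. Where every library had to hold at least 10 counts, 3 of 11 rose and 5 fell. *Hdac4* was not analysed here.

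Of 5 genes of adenine nucleotide turnover, 1 rose and 3 fell in the infarct zone (2 and 2 with total counts). *Nt5c1a*, which makes adenosine from AMP, had 68 counts in the WT and 153 in the TKO infarct zone, a ratio of 2.6 (1.99 to 3.6), and fell there relative to the other regions by 1.41 on the log2 scale (adjusted p = 0.0153, edgeR). *Ak1*, adenylate kinase, fell by 1.25 (adjusted p = 0.00145) and had a ratio of 1.69. *Ampd2*, an AMP deaminase, rose by 1.15 (adjusted p = 0.000728) and had a ratio of 0.79.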

How the data were processed

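Total RNA from 8 heart libraries was sequenced. According to the paper's methods and the submitters' processing notes, the authors trimmed reads with Trim Galore 0.6.5, quantified transcripts with kallisto 0.46 against mm10, and summarised them to genes. The deposited values are estimated counts, given as whole numbers, without normalization. Library strand is not given in the sources used here.

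A gene was kept at a mean of 1 CPM or more. Ratios between 2 libraries used TMM-scaled CPM with a prior count of 2. Their exact 95% binomial intervals were computed from the 2 counts alone, so they cover counting error only. They leave out the spread between mice and the uncertainty in assigning reads to genes. Reads were counted without molecular identifiers. Tests used edgeR 4.0.16 in R 4.3.3 (quasi-likelihood, region and genotype as terms, Benjamini-Hochberg adjustment over all 12999 genes), with DESeq2 1.42.0 as an alternative. On simulated data with 200 genes changed 2-fold, the tests called 97% of them for genotype and 92% for the infarct zone. For the departure only 1.5% were called, so a member not called there may still differ. These shares hold for the spread of the simulated data, and a gene with a larger spread can be missed in any of the tests. In the genotype test, *Postn* at a log2 difference of -0.91 ± 0.29 (SE) was not called (adjusted p = 0.236, edgeR). Among the members, *Prkaa1* had an SE of 0.38 in that test. The p-values measure the spread between libraries only. Alternatives were total-count scaling, DESeq2 size factors, leaving out the mitochondrial DNA-encoded genes, other filters, prior counts and fold limits, and leaving out each region. A symbol was missing in 153 table entries. Positions are from GENCODE (GRCm38) and promoters from RefSeq.

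The members, pathway lists, and marker lists were chosen with earlier results of these data known. Text names all 8 members, *Tigar*, *Prkag3*, up to 3 genes per pathway list with the largest infarct zone genotype difference, and the 3 genes most like each member. *Camkk1* and *Brsk2* were named after their values were seen. Figures were made with Python 3.11.15 and matplotlib 3.10.9.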

Additional observations from a re-analysis of the deposited data

Results flagged for a closer look

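The infarct zone over left ventricle ratio of *Prkaa1* was 0.439 in WT and 2.16 in TKO, opposite directions in the 2 genotypes. The infarct zone genotype difference of *Prkaa1* stood 1.65 ± 0.59 (SE) above that of the other regions on the log2 scale and did not pass the test (adjusted p = 0.571, edgeR), which rests on 1 infarct zone library per genotype and does not show that the genotypes were alike. The counts behind these ratios are 356, 240, 120, and 360, of which 3 are whole multiples of 120.

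The remote zone over left ventricle ratio of *Prkab1* was 1.26 in WT and 0.765 in TKO. These directions were opposite in 1 library each, and the difference was not tested. *Prkab1* had 761 counts in WT and 1283 in TKO left ventricle, and 1065 and 1141 in the remote zone, so the libraries that lie farthest apart are those of left ventricle.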

How the results depend on the processing

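With total-count scaling, 1 member passed 1.5-fold between genotypes in the infarct zone (0 higher, 1 lower), 3 did between infarct zone and left ventricle in TKO, and 1 did between remote zone and left ventricle in TKO. Median genes moved by -0.29 (infarct zone, TKO/WT), 0.82 and 0.53 (infarct zone over left ventricle, WT and TKO) and 0.14 (border zone over left ventricle, WT) on the log2 scale. Signs turned for *Stk11* in the genotype test (-0.02), for *Prkab1* (0.07), *Prkab2* (0.5) and *Stk11* (0.07) in the infarct zone test, for *Prkab2* (-0.1), *Prkag2* (-0.24) and *Stk11* (-0.03) in the departure test, and for *Stk11* over left ventricle in the WT infarct zone (1.03).

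With a limit of 2-fold, counts fell to 1 between genotypes in left ventricle, 0 in the infarct zone, and 0 in the border zone. Against left ventricle they fell to 2 in the TKO infarct zone, 0 in the border zone of either genotype, and 1 in the remote zone of WT. Without *Prkaa1*, an alternative chosen after seeing the data, counts were 1 in left ventricle, 1 in the infarct zone, and 0 in the border zone between genotypes, and, against left ventricle in WT, 0 for the border zone and 1 for the remote zone.

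DESeq2 called 1 member for the departure of the infarct zone, and leaving out each other region gave 0 to 1, the 1 being *Prkaa2* without left ventricle. In that test *Prkab1* turned to 0.02 without a filter and 0.24 without left ventricle (-0.18 without the border zone), and *Prkag2* to -0.04 without the border zone (0.08 without left ventricle). Over all genes, edgeR called 18 for genotype and DESeq2 342, and 1 and 288 for the departure. For genotype, edgeR called 56 with total counts, 80 without left ventricle, 6 without the infarct zone, 5 without the border zone, and 3 without the remote zone. For the departure it called 894 without left ventricle, 0 without the border zone, 0 without the remote zone, and 0 where every library had to hold at least 10 counts. The causes were not tested. The genotype test compared WT and TKO within each region. Counting intervals were narrow for 7 members at this depth, and the lack of replicates limits every ratio.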
